A study of Drosophila melanogaster with 2 samples.

Results

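The 6 genes described here, sbb, gro, CtBP, Sin3A, Smr and ebi, encode transcriptional corepressors, and they are 6 of the 13945 protein-coding genes of the fly annotation. They were chosen by name, with the count of joint summits at sbb already known. The numbers of summits at the genes, their signals and their ranks in both libraries are the values that the choice rested on, and they are described without a test. The data map DNA bound by CG34367, a homeodomain transcription factor, by ChIP-seq in 24-hour pupae of Drosophila melanogaster, taken whole. All animals carried a transgene for the factor with GFP fused to its C-terminus, and an antibody against GFP pulled down chromatin sonicated to 200 to 800 bp. The single group holds 2 libraries, labelled as biological replicates 1 and 2. There is no second genotype, stage or tissue, the labels do not name the promoter of the transgene, the sex or the number of animals, and whole animals mix all cell types, so the cells in which a site was bound are not known. The joint list was thresholded by the irreproducible discovery rate (IDR), a measure of how well peaks repeat in rank between lists. Its peaks are the 6270 strongest of a list called from both libraries pooled. Of these, 5993 had a match in the full list of each library, so a place in the joint list does not mean that a peak was found in both. Of the 6270 joint summits, 40 lay in these genes or within 2000 bp of them.

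Corepressors do not as a rule read DNA themselves. Sequence-specific repressors bring them to a gene, where they assemble enzymes such as histone deacetylases that make chromatin less permissive to transcription. Groucho (gro) and CtBP are recruited through short peptide motifs in repressors of the Hairy, Snail and Brinker kind. Sin3A is the scaffold of a histone deacetylase complex. Smr encodes the fly relative of the vertebrate corepressors SMRT and NCoR, and binds the ecdysone receptor that times metamorphosis. The protein made from ebi is the fly relative of TBL1, which belongs to the same vertebrate complex. The gene sbb, also known as scribbler or brakeless, encodes a nuclear protein that acts with Atrophin and the repressor Tailless, and that holds down the BMP receptor gene tkv in the wing.

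The bound DNA is shown first for 4 of the genes, at the strongest summit of each whose window touched no exon, since these windows let the base composition and the homeodomain cores be seen directly. Each window runs 50 bp to either side of the summit on the plus strand of Release 6, the assembly to which dm6 corresponds, with sequence from RefSeq. Capitals mark a match on either strand to TAATTA or TAATTG, both homeodomain cores, to TAAACA, a forkhead core, or to a dimer of TAAT and ATTA with 3 bases between.
gro, first intron, chr3R:26042446-26042546: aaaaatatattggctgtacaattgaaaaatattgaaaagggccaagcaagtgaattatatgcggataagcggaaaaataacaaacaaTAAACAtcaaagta
CtBP, first intron, chr3R:13012505-13012605: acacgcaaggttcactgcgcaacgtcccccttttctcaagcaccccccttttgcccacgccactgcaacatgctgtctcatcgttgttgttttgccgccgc
Smr, first large intron, chrX:12734718-12734818: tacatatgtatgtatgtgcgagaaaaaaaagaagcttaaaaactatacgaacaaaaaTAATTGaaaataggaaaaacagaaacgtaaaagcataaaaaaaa
ebi, between the divergent starts of ebi and AP-2alpha, chr2L:414864-414964: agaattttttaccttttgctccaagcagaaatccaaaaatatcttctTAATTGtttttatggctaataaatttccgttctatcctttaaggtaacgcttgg
The windows at gro, Smr and ebi were AT-rich, with 28.7%, 23.8% and 30.7% GC. That of CtBP was not, with 57.4% GC, and it held none of the sequences searched. The TAATTG of the ebi window lay on the summit itself, and that of the Smr window had its centre 9.5 bp from it.

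The deposited signal, a value given to each peak on an unstated scale, ran from 137 to 4557 over the joint list with a median of 248. Rank 1 is the strongest peak of a list. Each library has a list of 30000 peaks, of which 9154 in replicate 1 and 18385 in replicate 2 had a q-value of at most 0.05, and for even comparison the 6270 strongest of each were used where a library is taken alone. Read depth is unknown, so no error can be put on a single signal, and the spread is that between 2 libraries.

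The genes differed widely in how many summits they held. There were 22 at sbb, 9 at Smr, 4 at Sin3A, 2 each at CtBP and ebi and 1 at gro. A start-site summit, within 500 bp of an annotated transcription start site (TSS), was present at sbb, gro, Sin3A and ebi but not at CtBP or Smr, so at 4 of 6 genes, where 17.4% of all protein-coding genes had one. The same 4 genes had one in replicate 1 alone and in replicate 2 alone (18.3% and 17.1% of all genes), within 250 bp of a TSS (13.4%) and among the stronger 3135 joint peaks (9.80%). At Sin3A different summits met these settings. The one 142 bp from a TSS met the 250 bp window, but not replicate 1 alone or the stronger 3135 peaks. The one 420 bp from a TSS met both of those, but not the 250 bp window. With a window of 1000 bp CtBP made it 5 of 6, against 21.0%. All 6 genes had at least 1 summit in or within 2000 bp, as had 34.0% of all protein-coding genes, and all 6 did in each library alone (34.3% in replicate 1 and 33.6% in replicate 2). No summit of the 40 lay in coding sequence.

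**Figure D1:**
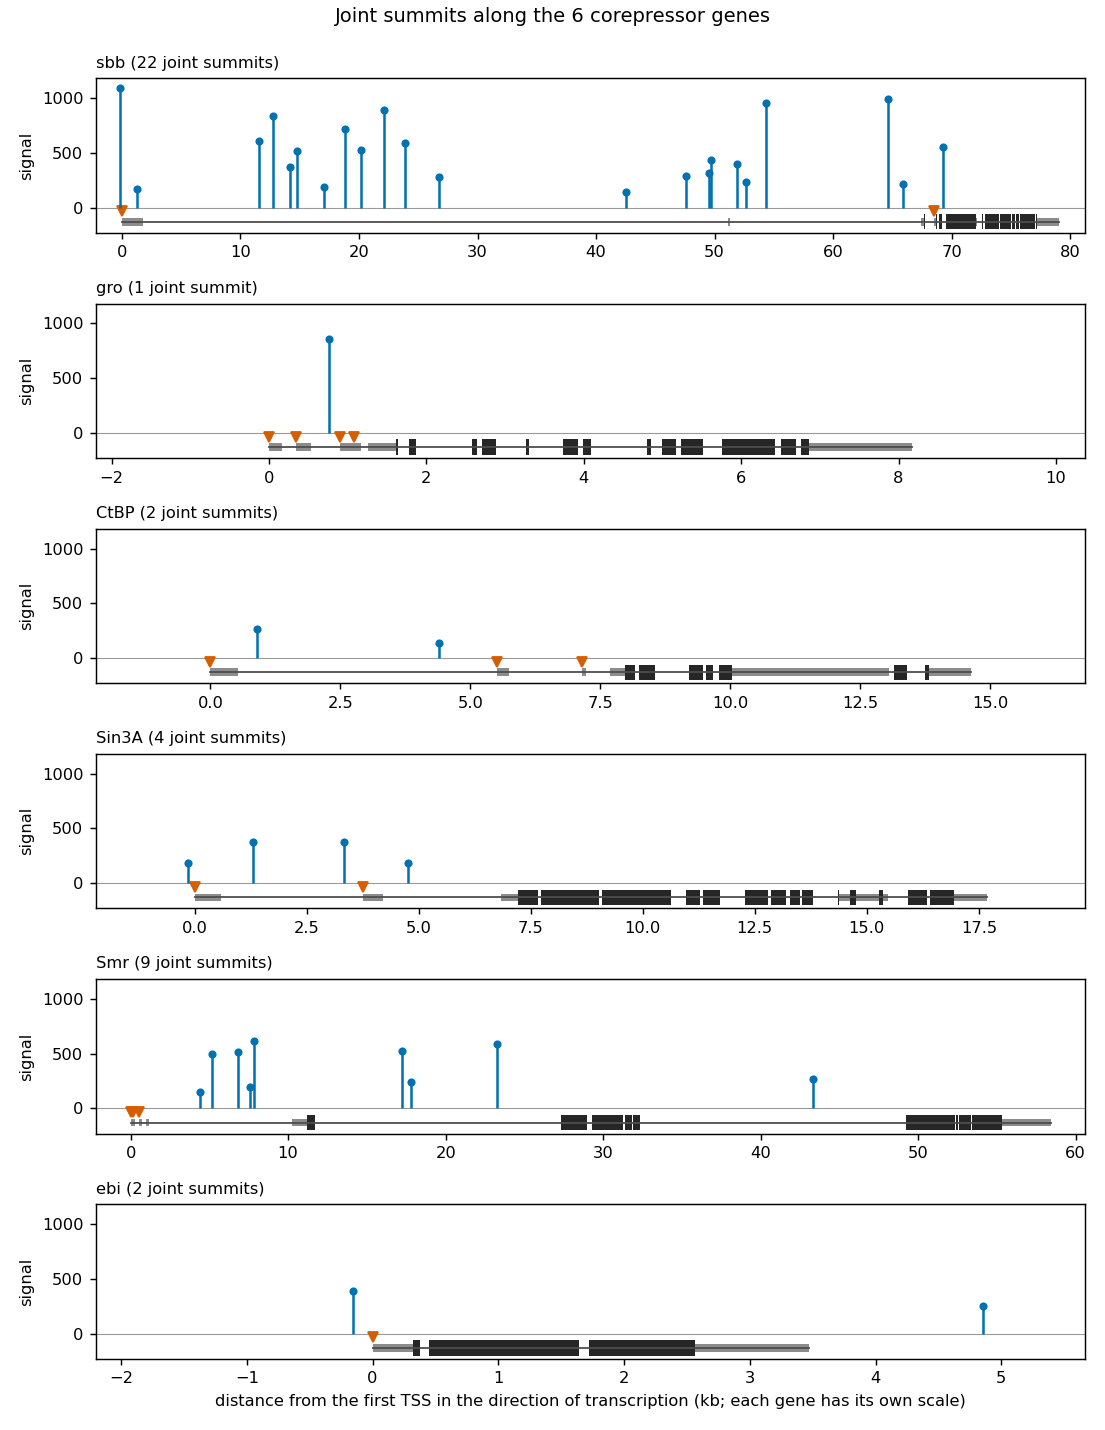
Joint summits (blue stems, height = deposited signal) along each gene, plotted by distance from the first TSS in kb, with exons in grey, coding sequence in black and TSS as orange triangles. Of the 22 summits of sbb, 19 lie in its long intron, those of Smr start 4432 bp past the first TSS, and the highest stem, 1090.2, stands at the first TSS of sbb.

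Gene length ran from 3.47 kb at ebi to 79.1 kb at sbb, so counts were also set against length. Per 10 kb of gene plus both flanks, the density was 2.68 at ebi, 2.65 at sbb, 1.85 at Sin3A, 1.44 at Smr, 1.07 at CtBP and 0.821 at gro, against 0.469 over the 6 chromosome arms. As high a density or higher was found at 4.63% of protein-coding genes for ebi, 4.68% for sbb, 12.0% for Sin3A, 20.1% for Smr, 25.4% for CtBP and 28.4% for gro, each with the gene itself included. When each library was taken alone at the length of the joint list, the mean density was 3.35 ± 0.947 (SD, n = 2) at ebi, 2.83 ± 0.255 at sbb and 1.61 ± 0.326 at Sin3A. It was 1.36 ± 0.340 at Smr, 0.805 ± 0.380 at CtBP and 1.64 ± 1.16 at gro. In both libraries ebi stood above Sin3A and Sin3A above CtBP, while gro changed place, with 2.46 in replicate 1 and 0.821 in replicate 2. With so few summits at these 4 genes, 1 more or less moves each density far. At sbb the density rests on many summits and at ebi on 2, both of them outside the gene.

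Against other genes, sbb stood near the top by count. Only 3 protein-coding genes held more joint summits, so 0.0287% of genes held as many or more with sbb itself included. As many as Smr were held by 0.488%, as many as Sin3A by 2.95%, as many as CtBP or ebi by 11.9% and as many as gro by 34.0%. Of 242 other protein-coding genes with a span within 1.5-fold of that of sbb, the median held 2 summits and 1 gene, Tet, held at least as many, with 24. Of 384 genes of a span like that of Smr, 31 held 9 or more, and the median was again 2. For Sin3A 132 of 1184 such genes held 4 or more, for CtBP 403 of 1390 held 2 or more, for ebi 693 of 8835 did, and for gro 1229 of 2675 held at least 1. The single summit of gro and the 2 of CtBP were thus counts that many genes of their length shared.

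**Figure D2:**
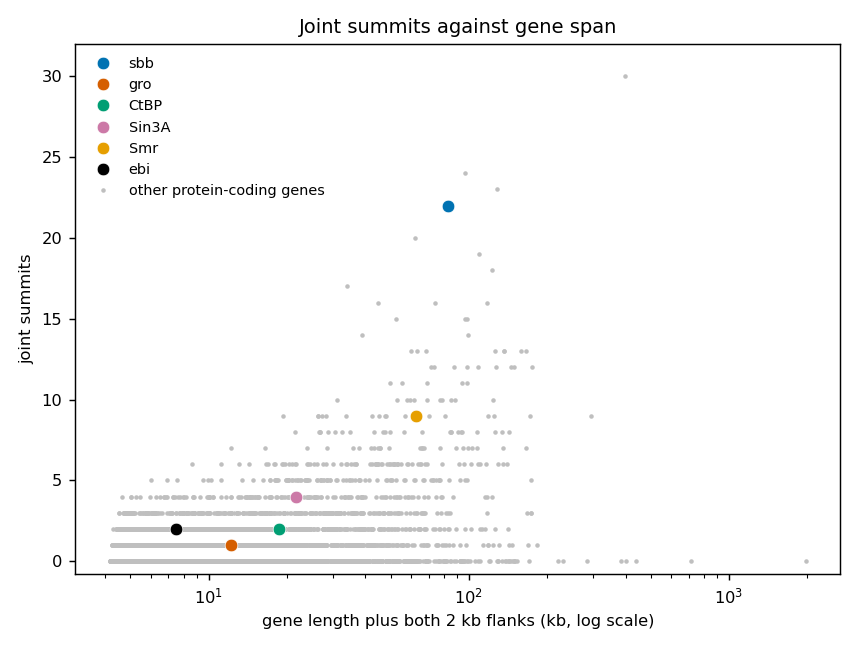
Number of joint summits (vertical axis) against gene length plus both 2 kb flanks (horizontal axis, kb, log scale) for all 13945 protein-coding genes, with the 6 corepressor genes in colour. sbb, at 22 summits, stands above all but 1 of the genes of a similar span, and gro, CtBP and ebi lie among the many genes with 1 or 2.

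The gene sbb (FBgn0285917) lies on the minus strand of arm 2R from 18278198 to 18357296, is 79.1 kb long and has 2 annotated TSS, the first used by 5 transcripts and the second by 2. Its strongest peak covered the first start (2R, 18357275 to 18357596), with the summit 133 bp upstream and a signal of 1090.2. That peak ranked 243 in the joint list, 370 in replicate 1 and 167 in replicate 2. At the second start the nearest summit was 752 bp downstream, inside a short intron common to all 7 transcripts, with a signal of 557 and ranks of 1486 and 681 in replicates 1 and 2. The start shared by most transcripts thus carried the strongest peak of the gene, and the second start had none within 500 bp.

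Most summits at sbb lay in 1 long intron, which is also most of the length of the gene. In 4 transcripts this intron of 65.6 kb makes up 83.0% of the gene, and 19 of the 22 summits lay in it. Their density was 2.89 per 10 kb, near the 2.65 of the gene with both flanks. The second strongest peak of sbb was in this intron (2R, 18292519 to 18292817), with a signal of 991 and ranks of 336 and 296 in replicates 1 and 2. It was followed by a peak 54365 bp past the first TSS (2R, 18302785 to 18303069), with a signal of 958 and ranks of 249 and 443, and one 22077 bp past it (2R, 18335130 to 18335426), with 894 and ranks of 461 and 362. All of these were among the strongest 500 peaks of each library. The intron also houses other genes: 8 protein-coding genes lie within the bounds of sbb, and 2 summits lay inside CG14502, which is one of those. The 991 peak was one of these, in the 5' UTR of CG14502 and 330 bp from a TSS of that gene, so it cannot be assigned to sbb by position. The other 20 summits lay in no nested gene and within 500 bp of no TSS but that of sbb.

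For description, the summits of sbb were put in groups, split wherever adjacent summits were over 5000 bp apart. That spacing was chosen after the positions were seen. Whether the summits lie closer together than scattered placement would put them was not tested. The largest group held 10 summits between 11524 and 26781 bp past the first TSS. Their signals ran from 189 to 894 with a median of 556, and 9 of the 10 were in the stronger 3135 peaks of the joint list. A stretch of 15783 bp with no joint summit followed. A lone weak summit (signal 143) then preceded 6 summits between 47602 and 54365 bp, with signals from 236 to 958. The last group, of 3, spanned the second TSS. The median spacing between neighbouring summits over the gene was 1822 bp and the shortest was 199 bp. Summits that close can fall within 1 sonicated fragment, so they are not independent.

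Signals at sbb were high as a set. Their median was 476, against 248 over the joint list, and 17 of the 22 lay above that value. Among the strongest 1000 joint peaks were 9 of the 22, against 15.9% of all joint peaks. In the libraries taken singly sbb held 22 summits in replicate 1 and 25 in replicate 2. Of its 22 joint peaks, 18 had a match among the strongest 6270 of each library and the other 4 among those of replicate 2 only. Those 4 had ranks of 6379 to 12999 in replicate 1 and of 1577 to 3696 in replicate 2. Below the joint threshold the gene held many more weak peaks: 44 in the pooled list, and in all 55 in the full list of replicate 1 and 84 in that of replicate 2.

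**Figure D3:**
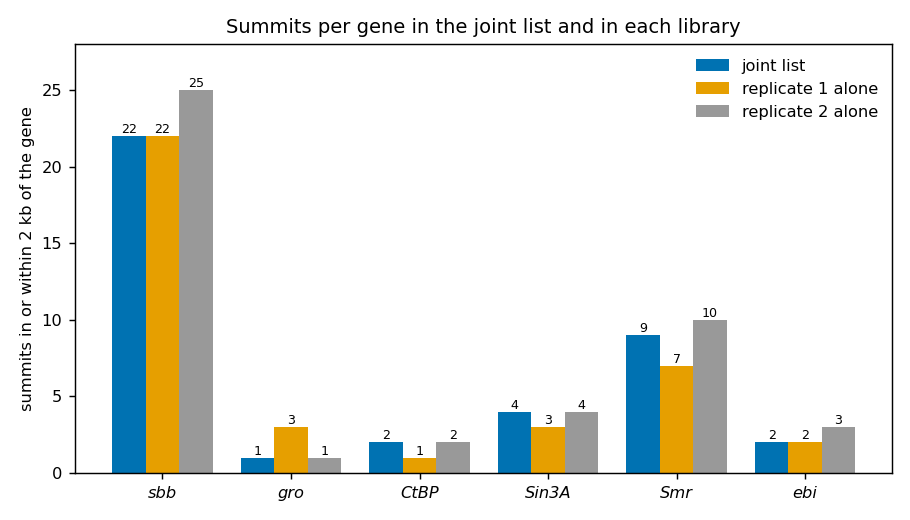
Summits in or within 2 kb of each gene in the joint list (blue), in the 6270 strongest peaks of replicate 1 (orange) and in those of replicate 2 (grey). sbb holds 22, 22 and 25, far above the other genes in each list, while gro holds 1 in the joint list and in replicate 2 but 3 in replicate 1.

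The other 5 genes differed in layout: gro had a single start-site peak, Sin3A had peaks at its starts and in its first large intron, CtBP in its first intron only, ebi outside the gene only, and Smr inside a long gene and away from its starts. The gro gene (FBgn0001139; 3R, 26041736 to 26049911, plus strand) has 4 TSS near its 5' end. Its only joint peak (3R, 26042374 to 26042646) had its summit 145 bp upstream of the TSS at 26042641, 416 bp downstream of that at 26042080 and 760 bp downstream of the first. The signal of 861 ranked 419 in the joint list, 304 in replicate 1 and 695 in replicate 2, which is the strongest start-site peak of the set after that of sbb. Replicate 1 alone held 2 further summits at gro, at ranks 5183 and 6246, the first of them 74 bp from the first TSS. Neither reached the joint list: overlapping pooled peaks ranked 7205 and 8173.

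Sin3A (FBgn0022764; 2R, 12575240 to 12592917, minus strand) carried a summit at both of its starts, a count reached by 1.69% of protein-coding genes. The one 142 bp upstream of the first TSS (2R, 12592869 to 12593248) was weak, with a signal of 182 and ranks of 7146 in replicate 1 and 3004 in replicate 2. The one 420 bp upstream of the second TSS (2R, 12589505 to 12589662) had 375, with ranks of 1598 and 2212. It also lay 195 bp from a TSS of the noncoding gene lncRNA:CR30055, inside an exon of that gene, so both genes share it. The other 2 summits lay in the first large intron, with signals of 373 (2R, 12591522 to 12591694) and 184 (2R, 12587960 to 12588339), and ranks of 3247 and 8006 in replicate 1 and of 1130 and 3737 in replicate 2. Of the 4 peaks, 3 ranked higher in replicate 2.

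CtBP (FBgn0020496; 3R, 13011649 to 13026275, plus strand) had no joint summit at any of its 3 TSS. Its 2 summits lay in the first intron, 906 bp past the first TSS (3R, 13012365 to 13012744) and 1108 bp before the second (3R, 13015863 to 13016242). Their signals were 260 and 139, and the weaker ranked 6184 of 6270, at the edge of the list. The stronger had ranks of 2633 in replicate 1 and 4120 in replicate 2, and the weaker 12830 and 4390. Weak peaks did lie at the first start below the joint threshold: the strongest within 500 bp of a CtBP TSS ranked 10800 in the pooled list, 8235 in replicate 1 and 9859 in replicate 2. The start without a joint summit was thus not without a peak in the longer lists.

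Smr (FBgn0265523; X, 12684203 to 12742618, minus strand) is 58.4 kb long, and its 3 TSS lie close together at the 5' end. All 9 summits were inside the gene and in introns, and the nearest lay 3884 bp from a TSS. 5 of them sat between 4432 and 7850 bp past the first TSS, in an intron of 10.5 kb or less, at 4.76 to 5.53 per 10 kb depending on the transcript. The strongest of the gene was among them (X, 12734441 to 12735165, signal 614), in an interval that held a second summit with a signal of 196. After it came summits with 587 (X, 12719230 to 12719463), 529 (X, 12725225 to 12725517) and 519 (X, 12735461 to 12735903). These had ranks of 714, 1262 and 819 in replicate 1, and of 1200, 899 and 1256 in replicate 2. Of the 9 peaks, 8 had a match among the strongest of each library, and 1 among those of replicate 2 only. The 587 and 529 summits and a weaker one with 242 lay within the noncoding gene lncRNA:CR43963, which overlaps an Smr intron. Within 500 bp of the starts the strongest peak ranked 15737 in the pooled list, 7122 in replicate 1 and 14355 in replicate 2.

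ebi (FBgn0263933; 2L, 415067 to 418536, plus strand) is the shortest gene, with 1 transcript, and no summit lay inside it. The first of its 2 peaks (2L, 414856 to 415034) had its summit 153 bp upstream of the ebi TSS and 137 bp from that of AP-2alpha, a clathrin adaptor gene transcribed the other way. Its signal was 394, with ranks of 892 in replicate 1 and 3759 in replicate 2. The second peak (2L, 419732 to 420111, signal 250) lay past the 3' end and had ranks of 1854 and 6672. The ribosomal protein gene RpLP1 and CG13690 each have a TSS within 500 bp of its summit, the nearest at 30 bp. The second peak counts for ebi only through the 2000 bp flank. Both ebi peaks were thus at promoters that other genes share or own.

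The peaks were then compared between the libraries, as the log2 ratio of signal in replicate 1 over replicate 2, centred on its median over the 5993 joint peaks found in both full lists. All 40 peaks had a match in both. Over the 40 the median was -0.14 with an SD of 0.88, and over all joint peaks the SD was 0.75. A ratio of more than 2-fold either way was seen at 11 of the 40 (27.5%), against 16.1% of all joint peaks. Replicate 1 was furthest ahead at both ebi peaks (1.45 and 1.41) and at the gro peak (0.62). Replicate 2 was furthest ahead at sbb (-2.54; 2R, 18304573 to 18304697), at the strongest Smr summit (-2.35) and at sbb (-1.74; 2R, 18355801 to 18356180). That last peak lay in the 5' UTR of the first sbb exon. The Smr value compares 1 peak of replicate 1, rank 4173, with the stronger of 2 summits in replicate 2, rank 301, and the same replicate 1 peak also served the neighbouring summit.

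Among the 40 peaks, 32 (80.0%) had a match among the 6270 strongest of each library, against 74.7% of all joint peaks. Of the rest, 7 were found among the strongest of replicate 2 only and 1, the second ebi peak, of replicate 1 only. Over all 6270 joint peaks these numbers were 778 and 755. By gene, 15 of 22 ratios at sbb, 6 of 9 at Smr and 3 of 4 at Sin3A lay below 0, and both at ebi lay above. Centring on the median puts as many of the 5993 joint peaks below 0 as above it. The 6 at Smr include 2 summits set against the same replicate 1 peak. Peaks of 1 gene share their surroundings, so these are counts over peaks and not over independent sites.

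**Figure D4:**
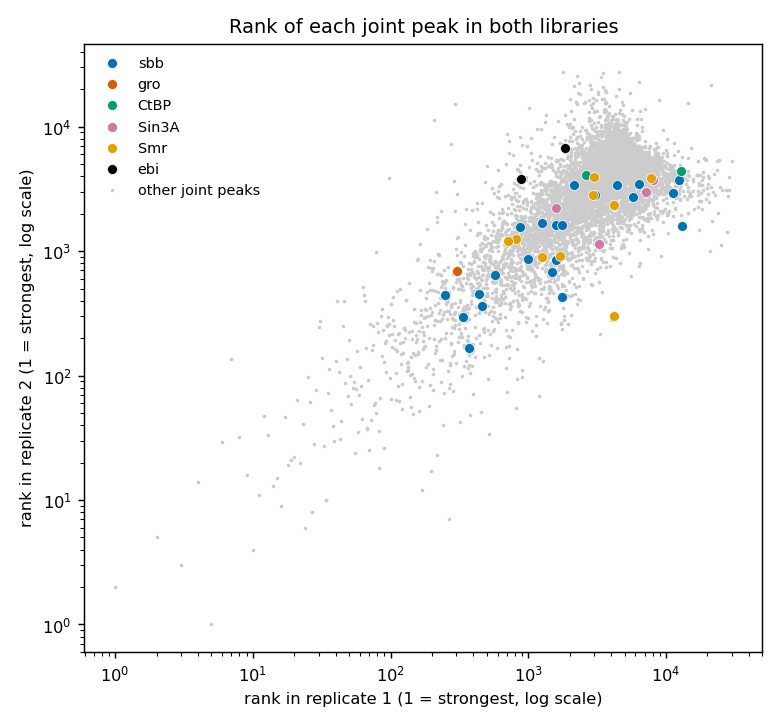
Rank of each joint peak in replicate 1 (horizontal) and replicate 2 (vertical), both on log scales with 1 the strongest, for the 40 peaks of the corepressor genes in colour and the other joint peaks in grey. Most coloured points follow the grey cloud. The Smr summit at ranks 4173 and 301 and the sbb peak at ranks 12999 and 1577 lie toward replicate 2. The ebi peak at ranks 892 and 3759 lies toward replicate 1. Grey points as uneven as this Smr summit and this ebi peak also occur.

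Base composition at the summits was a measure that the choice of genes did not use. Within 50 bp of the 40 summits the mean GC content was 33.1% ± 8.67 (SD over peaks), against 32.9% ± 8.99 over all 6270. By gene the means were 32.9% at sbb, 28.7% at gro, 50.5% at CtBP, 33.4% at Sin3A, 29.5% at Smr and 35.6% at ebi. The highest single value, 57.4%, was at CtBP, and the next, 51.5%, at sbb, where the lowest was 18.8%. The library ratio followed GC content weakly across the 40 peaks (Spearman's rho 0.27, Pearson's r 0.25), as across the 5993 (0.28 and 0.27). These are descriptions across peaks that share 2 libraries, and the part of base composition in the library differences was not tested.

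**Figure D5:**
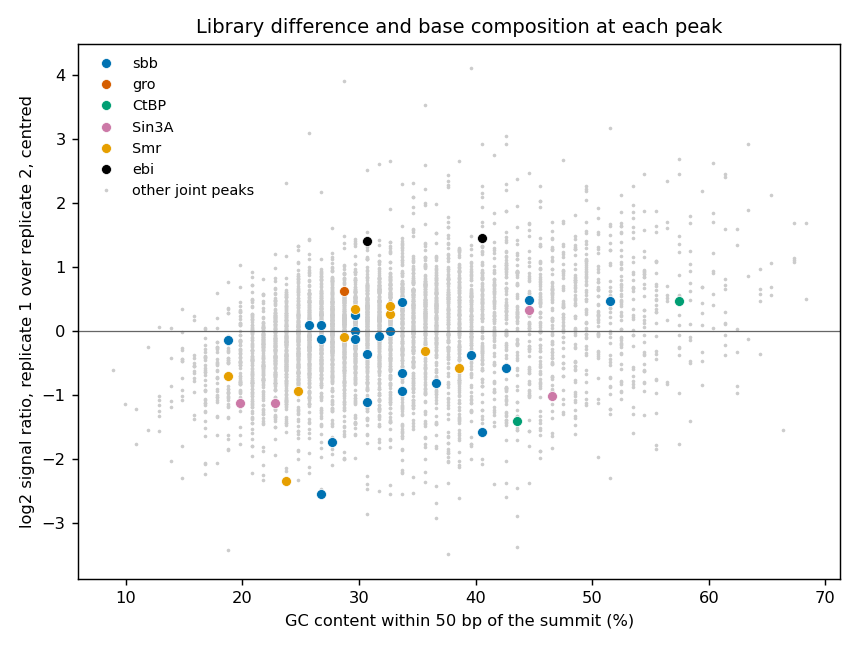
Centred log2 ratio of signal, replicate 1 over replicate 2 (vertical), against GC content within 50 bp of the summit (horizontal, %), for the peaks of the 6 genes in colour and other joint peaks in grey. The ebi peaks lie above 1, the lowest sbb peak lies at -2.54, and the CtBP peaks have GC contents of 43.6 and 57.4%.

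The sequences marked in the windows printed above were counted at all summits. TAATTA lay within 50 bp of 2 of the 40 summits, 5% (95% exact binomial interval 0.611 to 16.9%), against 9.33% of all 6270. Both were at sbb, one of them in the start-site peak. TAATTG lay at 5 of 40 (12.5%, 4.19 to 26.8%), against 10.4%, with 3 of the 5 at Smr and 1 each at sbb and ebi. TAAACA lay at 11 of 40 (27.5%, 14.6 to 43.9%), against 14.1%, with 5 at sbb, 3 at Smr, 2 at Sin3A and 1 at gro. The dimer lay at none, which leaves a share of up to 8.81% within the interval, against 1.44%. Both strands were searched, TAATTA is its own reverse complement, and a match can overlap another. The intervals cover counting error only and treat summits as independent, though 22 of the 40 share 1 gene, and no test was made.

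Genes whose summit counts were most like those of sbb were Tet, which encodes a dioxygenase, CG43658, shn, whose zinc finger protein acts in BMP signalling, and CG1677. Likeness was the Euclidean distance over the log2 counts in the joint list and in each library and the log2 span, 4 values per gene, and came to 0.25, 0.54, 0.64 and 0.68. They held 24, 19, 20 and 23 joint summits, and 1, 2, 3 and 0 of them at a TSS. For Smr the nearest were Samuel (0.22), CG12535 (0.35), Ptp10D, a receptor tyrosine phosphatase gene (0.37), and plum (0.38), with 10, 9, 10 and 10 joint summits over 53.8 to 65.1 kb. The measure takes in length and counts only and says nothing of what the genes do.

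The other genes of corepressor biology were looked up as 7 lists, 44 genes in all, of which 3 were matched by an older symbol. A summit lay within 500 bp of a TSS at 11 of the 44 (25%), against 17.4% of all protein-coding genes, and in or within 2000 bp at 21 (47.7%), against 34.0%. Counted in each library alone, 12 had a start-site summit in replicate 1 and 9 in replicate 2, against 18.3% and 17.1% of all genes. The counts are small, and the lists share genes.

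The partners and the target of sbb gave the strongest start-site peak of any list. Gug, which encodes Atrophin, is 22748 bp long and held 8 joint summits with its flanks, 2.99 per 10 kb, and a start-site peak (3L, 8450106 to 8450487) with a signal of 1542, above that at sbb itself. It ranked 84 in the joint list, 139 in replicate 1 and 67 in replicate 2. The gene tkv, 52385 bp long, also held 8 joint summits, none of them at a TSS, though replicate 2 alone had 1 there. The gene tll, which encodes Tailless, held none. All 3 genes of the list are named. Of the 3, 2 held any joint summit, against 34.0% of all protein-coding genes, and 1 a start-site summit, against 17.4%. A list of 3 genes is too small to set apart from these shares.

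Genes of repressors that recruit Groucho or CtBP held summits about as often as genes at large, in 4 of 11 and in 3 of 9, against 34.0% of all protein-coding genes. At a start the share over all genes was 17.4%. Of the 11 Groucho recruiters 1 had a summit at a start, cic, which encodes the repressor Capicua: the stronger of its 2 start-site peaks (3R, 20292642 to 20292847) had a signal of 375 and ranks of 1880 in replicate 1 and 2932 in replicate 2, and the gene held 11 joint summits. Of the others in the list 3 held any summit, namely brk, dpn and dl, with 2, 1 and 1, named after their values were seen. Of the 9 CtBP recruiters 1 had a start-site summit, ttk, which encodes the repressor Tramtrack (3R, 31725623 to 31726002, signal 220, ranks 3299 and 2918).

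Start-site peaks were also counted among genes of the enzyme complexes, where 17.4% of all protein-coding genes is the share to read the small lists against. In the SIN3 and HDAC list 2 of 6 had one: Sap130, a subunit gene (3L, 12806415 to 12806794, signal 215, ranks 6638 and 3098 in replicates 1 and 2), and Kdm5, a histone demethylase gene (2L, 5997587 to 5997966, signal 158, ranks 4423 and 7403). In the NuRD list, a nucleosome remodelling and deacetylase complex, 2 of 7 had one: MEP-1 (3L, 2635640 to 2635759, signal 245, ranks 1767 and 7253) and simj (3L, 10664554 to 10664933, signal 199, ranks 2907 and 5342). Sap130 ranked higher in replicate 2 and the other 3 in replicate 1. Of 9 genes known as partners of Smr or ebi 3 had one, led by the ecdysone receptor gene EcR (2R, 6157275 to 6157654, signal 227, ranks 2990 and 4380), with ttk next. EcR held 8 joint summits along its 81215 bp, 0.939 per 10 kb, below the 2.65 of sbb, which is of a similar length. Among the CoREST and other HDAC genes 2 of 5 had one: Sirt1, a deacetylase gene (2L, 13165088 to 13165269, signal 481, ranks 1361 and 1290, also within 500 bp of a TSS of DnaJ-H), and HDAC4 (X, 13285062 to 13285441, signal 152, ranks 7636 and 3938, also near CG15743). All of these signals lay below those at the starts of sbb, gro and Gug.

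The threshold of the joint list bears on the weak peaks. The weakest peaks inside it were 139 at CtBP, 143 at sbb and 153 at Smr. The strongest pooled peaks just outside it had 81.6 at CtBP, 123 at sbb, 111 at Smr, 120 at gro, 75.4 at Sin3A and 66.9 at ebi. Beyond the 2000 bp flank the nearest joint summit lay 2617 bp from gro, with a signal of 180, and at least 4825 bp from each of the others.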

How the data were processed

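The deposited files are narrowPeak lists on dm6. Per the labels and the deposited text descriptions, the authors called peaks for each library and for both pooled against 1 control and derived the joint list by IDR. The joint peaks are the 6270 strongest of the pooled list. The caller was not given in the sources used here. Signal as deposited is the authors' value per peak, of unstated scaling. Their -log10 q-value, deposited beside it, is the same for all 6270 joint peaks and only served as an alternative filter (q at most 0.05, 9154 peaks in replicate 1 and 18385 in replicate 2). Replicate and pooled lists hold 30000 peaks each. Read depth is unknown, and whether libraries came from separate animals is stated only as biological replicates.

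The members and gene lists were chosen with earlier results of these data known, so the comparisons carry no test. The text names, for each member, its start-site peaks and its 4 strongest peaks, the 3 most uneven peaks in each direction, the 2 genes of each list with the highest start-site signal, and the 4 genes most like sbb and Smr. Genes and TSS came from Ensembl release 115. 0 peaks passed an arm end of Release 6. Summits were counted within 500 bp of a TSS and within 2000 bp of a gene. A joint peak was matched to the overlapping replicate peak (at least 1 bp) with the nearest summit. Ranks follow signal within a list. For each library alone, the 6270 strongest peaks were used. The arithmetic of counting summits within a gene and its flanks was tested on simulated data. The TSS windows, the matching between libraries and the motif counts were not. Coordinates are 1-based. Sequence windows of sbb and Sin3A are not reported here. Python 3.11.15, numpy 2.4.6, pandas 2.3.3, scipy 1.17.1 and matplotlib 3.10.9 were used.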

Additional observations from a re-analysis of the deposited data

How the results depend on the processing

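No paired analysis was possible because the series has 1 group. Of 69 values recomputed under other settings, 52 stayed within the limits set (counts within 1.5-fold, densities within the SD between libraries) and 17 moved. The SD was each gene's own, so the limit was widest where the libraries differed most. At gro the SD of 1.16 exceeded the density of 0.821, so no fall could count as a move. A count of 3 against 2, as at ebi, also stayed within the limit. The 52 are thus no measure of stability. Start-site summits stayed at sbb, gro, Sin3A and ebi without either library, in the stronger 3135 peaks and with a window of 250 bp, and CtBP joined them with a window of 1000 bp (5 genes). At Sin3A no single summit met all of these settings. Leaving out 1 library gave 22 to 25 summits at sbb, 1 to 3 at gro, 1 to 2 at CtBP, 3 to 4 at Sin3A, 7 to 10 at Smr and 2 to 3 at ebi, or per 10 kb 2.65 to 3.01, 0.821 to 2.46, 0.537 to 1.07, 1.38 to 1.85, 1.12 to 1.60 and 2.68 to 4.02. The gro count of 3 came without replicate 2, and the CtBP count of 1 likewise. In the stronger 3135 peaks of the joint list, CtBP held 1 summit and Sin3A 2, and the density was 2.05 at sbb, 0.537 at CtBP, 0.923 at Sin3A and 0.961 at Smr, since fewer peaks were counted. With a flank of 5000 bp gro held 2 summits and Sin3A had 1.45 per 10 kb. With no flank ebi held 0, and its density was 0, since both of its peaks lie outside the gene. The 32 peaks shared by the strongest of both libraries were 23 with reciprocal overlap of 50%, 29 with summits within 100 bp, 36 with replicate peaks at q of at most 0.05 and 40 with the full lists.

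Read depth is unknown, so the precision of a single signal is unknown, and 2 libraries limit every comparison between them.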
